A study of Mus musculus with 30 samples.

Results

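Mural cells are the pericytes and smooth muscle cells that wrap blood vessels. Those of the newborn mouse thymus were compared 2 days after injection of a trap for vascular endothelial growth factor A (VEGF-A) or a control. Free VEGF-A was not measured in these data. The data were 6 of the 30 RNA sequencing libraries of the study, chosen by their labels alone: 2 control and 4 Trap libraries of CD146-positive mesenchyme. B6.SJL mice of both sexes had been injected on postnatal day 1 with aflibercept, the Trap of the study, or with human Fc protein as the control, and their thymi were collected at postnatal day 3. The drug aflibercept is a soluble decoy built from parts of VEGF receptors 1 and 2, and both groups therefore carried an injected Fc-containing protein. After digestion and magnetic removal of CD45-positive cells, the cells were sorted as lacking CD3, CD4, CD8, CD45, Ter119, EpCAM and CD31 and as carrying CD146. No transgene or deletion was part of the design. Replicate libraries are numbered in the labels without a count of animals, and every p-value here is set against the spread between libraries, which may be technical.

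Pericytes sit on capillaries inside the basement membrane that they share with the endothelium, and smooth muscle cells ring the larger vessels. Endothelial cells recruit pericytes with platelet-derived growth factor B, which acts on the receptor Pdgfrb, and mural cells in turn supply angiopoietin 1 and VEGF-A. VEGF-A acts mainly on endothelial receptors, foremost Kdr. In the thymus, perivascular cells stand where progenitors enter and mature T cells leave.

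The 6 libraries carried the transcripts of mural cells. Mcam, the gene of CD146, stood at 105.33 and 141.07 FPKM in the controls and at 149.79, 112.44, 135.74 and 143.16 FPKM with Trap. FPKM counts fragments scaled by gene length and by library size. Rgs5, a regulator of G protein signalling typical of pericytes, stood at 3259.76 and 4261.77 FPKM in the controls and between 2782.89 and 4382.02 FPKM with Trap. Pdgfrb stood at 130.01 and 175.96 FPKM in the controls and between 142.01 and 196.00 FPKM with Trap. The 3 markers averaged 131 ± 18.0, 3781 ± 630 and 166 ± 24.9 FPKM (SD, n = 6, controls and Trap together). Mcam is the gene of the protein the cells were sorted on, so the label rests on Rgs5 and Pdgfrb. The genes of the surface proteins excluded by the sort were low: Pecam1 averaged 2.51 FPKM, with all Trap libraries below both controls, against 321 FPKM in the sorted endothelium, and Epcam 0.77 FPKM, against 306 FPKM in cortical epithelium. Ptprc, the gene of CD45, reached at most 0.17 FPKM. Pdgfra, the gene of CD140a, which is not among the excluded proteins named above, averaged 2.16 FPKM against 121 FPKM in CD140a-positive mesenchyme.

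Some libraries stood apart in ways that did not follow the treatment. Control 1 and Trap 2 resembled each other: their summed FPKM over 23 genes of the interstitial and elastic matrix was 3155 and 3422, against 1828 in control 2 and 1937 to 2243 in the other Trap libraries. Fibroblast markers summed to 228 and 259 FPKM in the same pair and to 121 to 177 FPKM elsewhere. Much of this came from elastic fibre genes, singled out after their values were seen. Eln, which encodes elastin, stood at 739.42 FPKM in control 1 and 764.59 FPKM in Trap 2, but at 25.79 FPKM in control 2 and at 130.59, 42.59 and 21.17 FPKM in Trap 1, 3 and 4. Fbln5, an elastic fibre assembly protein, stood at 79.82 and 83.54 FPKM in that pair and between 0.54 and 11.33 FPKM elsewhere. Lox, the enzyme that crosslinks elastin and collagen, stood at 146.53 and 158.71 FPKM against 12.19 to 36.81 FPKM. Mfap4, another elastic fibre gene, reached 61.74 and 87.91 FPKM against 0.21 to 4.28 FPKM. With 1 of the pair in each group, these genes overlapped completely between control and Trap, and their changes came with standard errors (SE) of 1.02 to 1.76 on the log2 scale. In sorted bulk RNA, fewer cells of a type and less RNA per cell cannot be told apart.

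**Figure D1:**
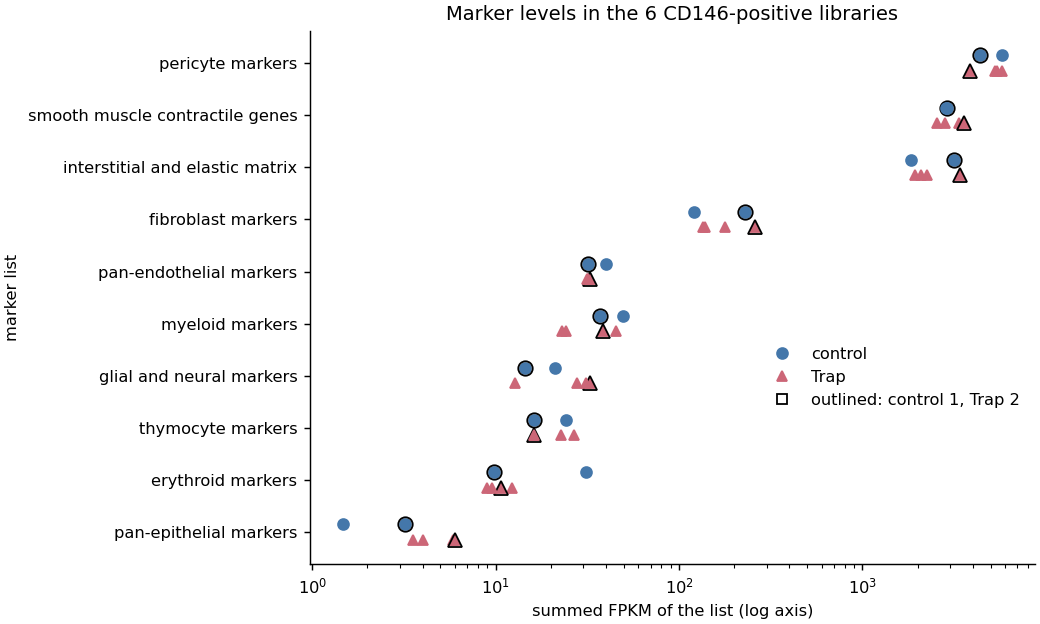
Summed FPKM of 10 marker lists (log axis) in the 2 control (circles) and 4 Trap libraries (triangles) of CD146-positive mesenchyme, with control 1 and Trap 2 outlined. Pericyte markers sum to 3846 to 5739 FPKM, and the outlined pair is high in the matrix and fibroblast lists, at 3155 and 3422 FPKM and at 228 and 259 FPKM.

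Transcripts of genes used as markers of other cell types were present in small amounts. Of 16 pan-endothelial markers, 7 stayed under 1 FPKM in all 6 libraries. Among the 9 tested, Pecam1 and Tek had all Trap libraries below both controls and Ptprb, an endothelial phosphatase, all above, at 0.39 and 0.48 FPKM against 0.64 to 1.89 FPKM. Over all genes tested, 7.78% lay wholly below the controls and 6.53% wholly above. The endothelial list summed to 31.77 and 40.10 FPKM in the controls and to 31.60 to 32.65 FPKM with Trap. Of 10 pan-epithelial markers, 7 stayed under 1 FPKM, and the sum was 1.47 and 3.19 FPKM in the controls and 3.54 to 6.0 FPKM with Trap, without overlap. Myeloid markers summed to 37.14 and 49.60 FPKM in the controls and to 22.92 to 45.19 FPKM with Trap, most of it Cd68, while C1qa, Adgre1 and Tyrobp were listed at 0 in all 6 libraries. Thymocyte markers summed to 16.10 to 26.64 FPKM, most of it Thy1, and Cd3d and Cd2 were listed at 0 throughout. Glial markers summed to 14.50 and 20.94 FPKM in the controls and to 12.71 to 32.59 FPKM with Trap. The erythroid list summed to 31.06 FPKM in control 2 and to 9.02 to 12.21 FPKM in the other 5 libraries. Whether these transcripts came from other cells or from the mural cells was not tested, nor was their part in the differences below.

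The comparison of Trap with control was made with limma on log2(FPKM + 1) over the 6 libraries, for the 12488 genes that reached 1 FPKM in at least 2 of them. The threshold, a limma p adjusted by Benjamini-Hochberg that is under 0.05, was met by no gene (0% of genes higher and 0% lower), and the smallest adjusted p was 0.303. At an unadjusted p under 0.05, 292 genes lay higher with Trap (2.34%) and 439 lower (3.52%). In 815 genes (6.53%) all 4 Trap libraries lay above both controls, and in 971 (7.78%) below both. The median change of all genes was -0.02. With spread borrowed from all 30 libraries of the 5 sorted populations, 2 genes passed (0 higher, 2 lower, 0.016%), one of them Mcm3, with an adjusted p of 0.0211 in limma. Many mural genes are near 0 in the other populations, where log2(FPKM + 1) has little spread, so this pooled spread could be too small for them. Mcm3 was not near 0 in CD140a-positive mesenchyme, where it averaged 6.455 FPKM in the controls and 7.94 FPKM with Trap. Since no gene passed in the 6 libraries, every change named below is a difference that did not pass there. Log2 changes are Trap minus control on log2(FPKM + 1), which understates the change of low genes.

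The genes of cell division lay lower with Trap almost throughout. Of the 29 cell cycle genes, all of which were tested, 27 had a change below 0 and 2 above, and the list's median was -0.57, against -0.02 over all genes. None passed, 8 lay lower at an unadjusted p under 0.05, and in 7 all Trap libraries lay below both controls. Over all genes those shares were 3.52% and 7.78%, and 52.4% had a change below 0. The list and its members were chosen with earlier results of these data known, so these counts are a description and not independent support. The list's summed FPKM was 563.50 and 440.86 in the controls and 389.43, 436.44, 343.04 and 308.33 with Trap. The sums did not overlap, although Trap 2 and control 2 were separated by only a few FPKM. The 2 genes with a change above 0 were Cdkn1a and Cdkn1b, which encode p21 and p27, inhibitors of cyclin-dependent kinases rather than drivers of division. Cdkn1a had a change of 0.25 ± 0.18 and Cdkn1b one of 0.11 ± 0.19 (SE). Without control 1, which held the highest sum, 22 of the 29 lay below 0 with a median of -0.48, and without control 2 the figures were 25 and -0.80. With control 1 and Trap 2 both left out, an alternative added after the data were seen, 24 lay below 0 with a median of -0.49.

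Of the 6 subunits of the replicative helicase, the MCM complex that unwinds DNA at origins, 3 had separate groups. Over all genes, 7.78% had all Trap libraries below both controls. Mcm3 stood at 10.72 and 10.12 FPKM in the controls and at 2.59, 5.08, 3.22 and 3.42 FPKM with Trap. The controls lay close together, and every Trap library lay well below both. The gene lies on chromosome 1 at 20802968 to 20820312 on the minus strand (GRCm38, GENCODE annotation). Its change was -1.35 ± 0.26 (SE, 95% interval -1.94 to -0.75, limma adjusted p = 0.787). Mcm4 stood at 18.12 and 20.66 FPKM against 10.97, 12.39, 13.21 and 13.05 FPKM, a change of -0.61 ± 0.16. Mcm7 stood at 17.06 and 13.27 FPKM against 7.20, 8.26, 10.41 and 10.49 FPKM, a change of -0.68 ± 0.21. The groups stayed apart in these subunits and overlapped in Mcm2 and Mcm5, with changes of -0.57 ± 0.39 and -0.75 ± 0.35. Mcm6 stood at 15.55 and 12.18 FPKM in the controls and at 13.33, 22.91, 11.21 and 10.02 FPKM with Trap and overlapped too. Pcna, the sliding clamp of the polymerases, stood at 93.84 and 74.31 FPKM against 73.11, 61.85, 55.68 and 61.73 FPKM. Tyms, which makes thymidylate, stood at 6.07 and 3.23 FPKM against 2.66, 3.05, 2.88 and 2.44 FPKM. In Pcna and Tyms the groups were separated by a narrow gap.

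Of the list's mitotic genes, Kif11 and Bub1 had separate groups, against 7.78% of all genes with all Trap libraries below both controls. In Aurkb, Birc5, Ccnb1, Ccnb2, Cdc20, Cdk1 and Plk1 the groups overlapped, with changes from -0.96 for Cdk1 to -0.18 for Ccnb2. Kif11, the kinesin that pushes spindle poles apart, stood at 25.88 and 18.82 FPKM in the controls and at 12.51, 12.74, 10.69 and 8.69 FPKM with Trap, a change of -0.94 ± 0.21. Bub1, a kinase of the spindle checkpoint, stood at 6.47 and 3.74 FPKM against 3.38, 3.36, 2.08 and 1.18 FPKM. Cks2, a small partner of cyclin-dependent kinases that is not in the list and was chosen by its p and its separation, stood at 46.58 and 37.00 FPKM against 19.33, 16.56, 13.78 and 7.45 FPKM, a change of -1.55 ± 0.32. These 3 genes did not overlap between the groups, which for Cks2 was a condition of its choice. Mki67, the proliferation antigen, stood at 79.35 and 45.70 FPKM against 43.51, 55.26, 27.38 and 19.37 FPKM, and Top2a, which untangles chromosomes, at 36.67 and 17.91 FPKM against 15.53, 24.44, 10.28 and 5.84 FPKM. In both, Trap 2 lay above control 2, so the groups overlapped. Trip13, an ATPase of the same checkpoint that was chosen in the same way, stood at 4.89 and 8.13 FPKM against 2.15, 1.15, 1.65 and 0.70 FPKM, a change of -1.64 ± 0.35.

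**Figure D2:**
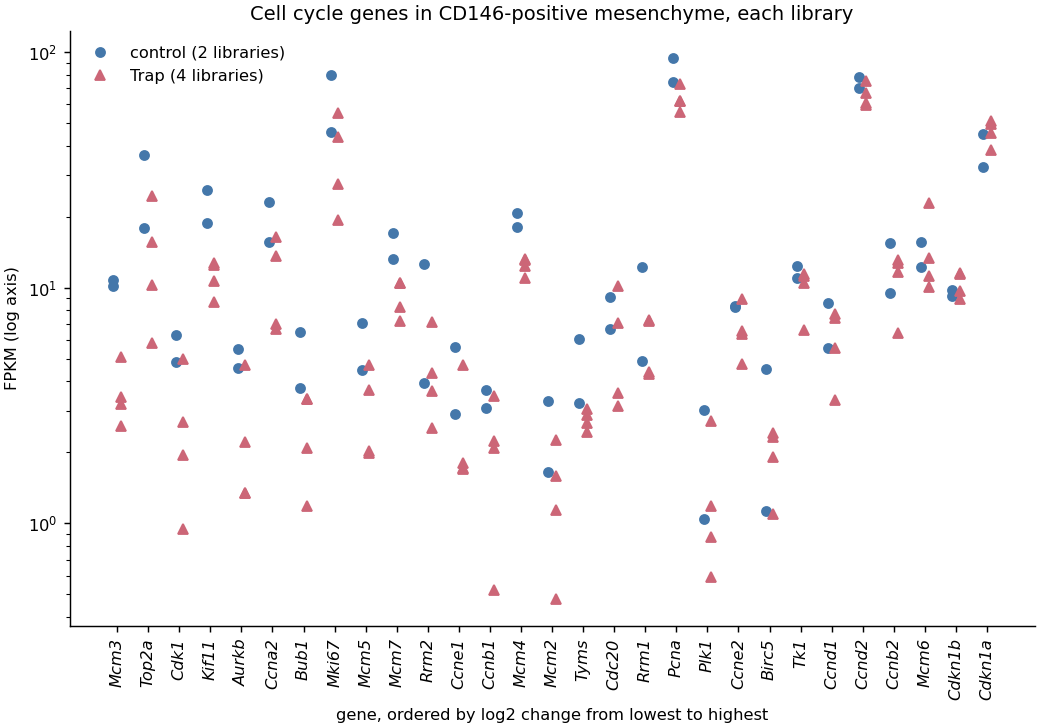
FPKM (log axis) of the 29 cell cycle genes in the 2 control (circles) and 4 Trap libraries (triangles), ordered from the lowest to the highest log2 change. Mcm3, Kif11, Mcm4, Mcm7, Pcna, Bub1 and Tyms have all 4 Trap libraries below both controls, and only Cdkn1b and Cdkn1a, at the right, have a change above 0.

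The promoters of 2 of these helicase genes are shown because the genes lay lower together and because E2F factors, which switch on replication genes as cells enter S phase, bind short elements near their starts. The letters TTTCCCGC, TTTCGCGC, TTTGCCGC and TTTGGCGC were searched on both strands between 250 bases before and 50 bases after the start in RefSeq promoters of build GRCm38.p6. They occurred in 5 of the 23 cell cycle genes with a promoter in the table (21.7%) and in 704 of all 27025 genes (2.6%). A second element of cell cycle genes, searched as TTTGAA and TTCGAA, occurred in 10 of the 23 (43.5%) and in 21.7% of all genes. Different motifs were counted separately, whether or not their matches overlapped. Of the 6 matched genes whose Trap libraries all lay below both controls, 2 held the first motif. The windows lie on the minus strand at chr1:20820263-20820562 for Mcm3 and chr5:138171834-138172133 for the first of 2 Mcm7 windows in the table, and capitals mark the E2F letters on either strand.
Mcm3: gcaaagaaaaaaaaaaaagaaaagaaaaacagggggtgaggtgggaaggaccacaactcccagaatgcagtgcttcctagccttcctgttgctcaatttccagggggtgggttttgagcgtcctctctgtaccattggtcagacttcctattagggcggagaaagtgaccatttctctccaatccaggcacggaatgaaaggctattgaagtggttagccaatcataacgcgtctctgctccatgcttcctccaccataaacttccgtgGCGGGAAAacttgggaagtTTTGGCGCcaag
Mcm7: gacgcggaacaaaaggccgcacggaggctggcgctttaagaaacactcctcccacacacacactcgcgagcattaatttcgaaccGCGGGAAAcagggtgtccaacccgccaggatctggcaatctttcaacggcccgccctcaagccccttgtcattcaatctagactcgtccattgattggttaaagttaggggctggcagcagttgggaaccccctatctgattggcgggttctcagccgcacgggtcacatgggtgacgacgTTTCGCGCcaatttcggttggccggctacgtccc
The second Mcm7 window held 0 E2F matches and is not shown. A match describes the letters only and is not evidence of binding.

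The same genes were then compared with those of 2 other sorted populations, each with its own 2 control and 4 Trap libraries. Whether libraries of different populations came from the same animals is not stated, and the tests of differences treated them as independent. In endothelium the cell cycle list's median change was -0.93, and in CD140a-positive mesenchyme, the fibroblasts of the thymus, -0.13. Kif11 had a change of -0.94 in mural cells, -2.23 in endothelium and -0.28 in CD140a-positive cells. Mcm3 had changes of -1.35, -0.92 and 0.25. Ccnd1, the cyclin that mitogens induce in G1, had a change of -0.23 ± 0.33 in mural cells and one of -2.44 in endothelium. The difference between populations was tested with the interaction of treatment and population in limma. No gene passed in either comparison: 0% higher and 0% lower, among 13475 genes against CD140a-positive cells and 13755 against endothelium. At an unadjusted p under 0.05, the mural change was the higher of the 2 in 324 genes (2.4%) and the lower in 288 (2.14%) against CD140a-positive cells. Against endothelium it was the higher in 421 genes (3.06%) and the lower in 232 (1.69%). Of the 29 cell cycle genes, the mural change was below that of CD140a-positive cells in all but 2, with a median difference of -0.46, and 2 were lower at an unadjusted p. It was above that of endothelium in 23, with a median difference of 0.53, and 5 were higher at an unadjusted p. Over all genes the median difference from CD140a-positive cells was 0.00, and that from endothelium 0.04. Mcm3 had a difference of -1.60 ± 0.34 from CD140a-positive cells (limma adjusted p = 0.775) and Ccnd1 one of 2.21 ± 0.70 from endothelium (limma adjusted p = 0.916).

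**Figure D3:**
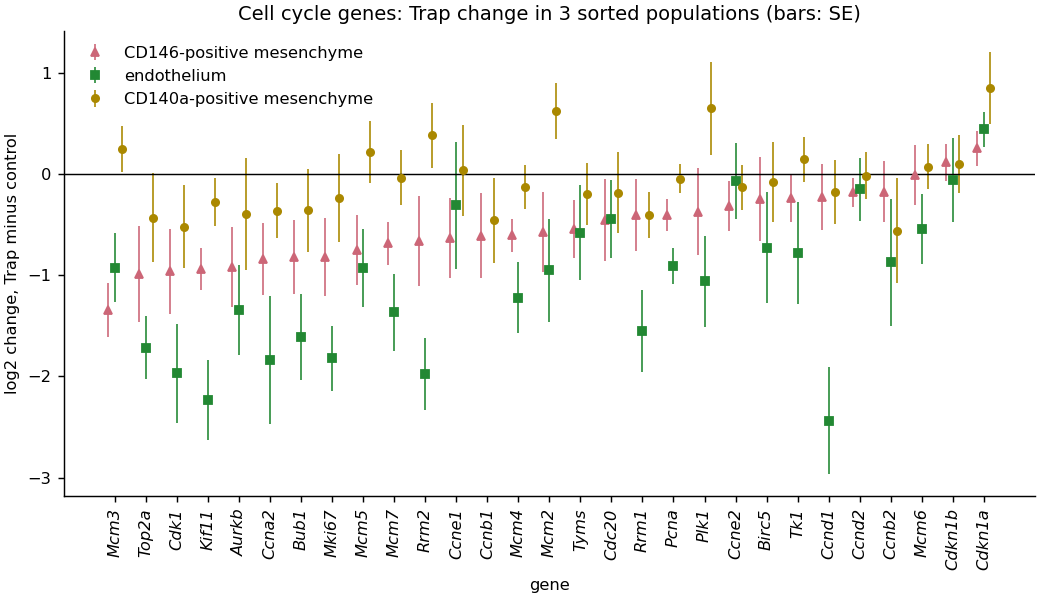
Log2 change (Trap minus control, with SE) of the 29 cell cycle genes in CD146-positive mesenchyme (triangles), endothelium (squares) and CD140a-positive mesenchyme (circles), in the order of the mural change. Most endothelial points lie lowest and most points of CD140a-positive cells highest, and a population's point is missing where the gene was not tested there.

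Beyond the cell cycle, the genes of smallest p among those with lower values included Sdf2, a protein of the endoplasmic reticulum lumen, which stood at 40.16 and 39.89 FPKM in the controls and at 25.25, 21.53, 22.84 and 19.78 FPKM with Trap. Its change was -0.82 ± 0.15, with controls that were nearly equal. Tymp, thymidine phosphorylase, stood at 13.89 and 12.24 FPKM against 4.40, 0.34, 1.74 and 0.65 FPKM, a change of -2.55 ± 0.51. H2afv, a histone H2A.Z variant, stood at 16.98 and 21.94 FPKM against 8.30, 12.19, 8.64 and 7.26 FPKM. All Trap libraries lay below both controls in these genes, which was a condition of their choice. Ndufa5, a subunit of respiratory complex I, stood at 11.60 and 9.0 FPKM against 3.43, 5.39, 4.21 and 3.30 FPKM. Tgtp2, an interferon-induced GTPase, stood at 141.48 and 157.23 FPKM against 99.55, 85.47, 99.75 and 103.25 FPKM, and reads of its near-identical neighbour Tgtp1 may be shared with it. Hbb-bs, a beta globin, stood at 1.90 and 10.91 FPKM in the controls and at 0.00, 0.21, 0.00 and 0.00 FPKM with Trap, and Hba-a1, an alpha globin, was listed at 8.56 FPKM in control 2 and at 0 elsewhere. These 10 lower genes, Mcm3, Kif11, Cks2 and Trip13 included, had limma adjusted p-values of 0.787.

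Among higher values, Creb3l1, a transcription factor held in the membrane of the endoplasmic reticulum, stood at 27.36 and 30.37 FPKM in the controls and at 46.18, 49.21, 46.31 and 56.78 FPKM with Trap, a change of 0.76 ± 0.14. Pparg, the nuclear receptor of fatty acid and adipocyte genes, stood at 1.39 and 2.07 FPKM against 6.21, 7.68, 5.24 and 4.34 FPKM, a change of 1.32 ± 0.28. Every Trap value lay well above the higher control, at a low level. Bmp6, a bone morphogenetic protein, stood at 2.17 and 1.79 FPKM against 5.84, 3.98, 7.03 and 4.91 FPKM. Sorbs3, the focal adhesion adaptor vinexin, stood at 40.39 and 50.17 FPKM against 68.73, 59.12, 71.36 and 80.40 FPKM. Neither group overlapped the other in these 4 genes, which was again a condition of their choice. Cd93, a membrane lectin-like protein abundant in endothelium, stood at 24.29 and 28.89 FPKM against 50.94, 41.97, 46.26 and 40.64 FPKM, a change of 0.74 ± 0.15. In the sorted endothelium Cd93 averaged 619 FPKM in both groups, and the pan-endothelial sum of the mural libraries was 31.77 and 40.10 FPKM in the controls and 31.60 to 32.65 FPKM with Trap. Gstm1, a glutathione transferase with close paralogs, stood at 28.46 and 32.41 FPKM against 78.29, 40.44, 54.74 and 60.83 FPKM. The remaining 4, Hspb2, Schip1, Pcdh9 and Arhgap6, had changes of 1.53, 1.24, 0.72 and 0.71, and all 10 had limma adjusted p-values of 0.787.

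**Figure D4:**
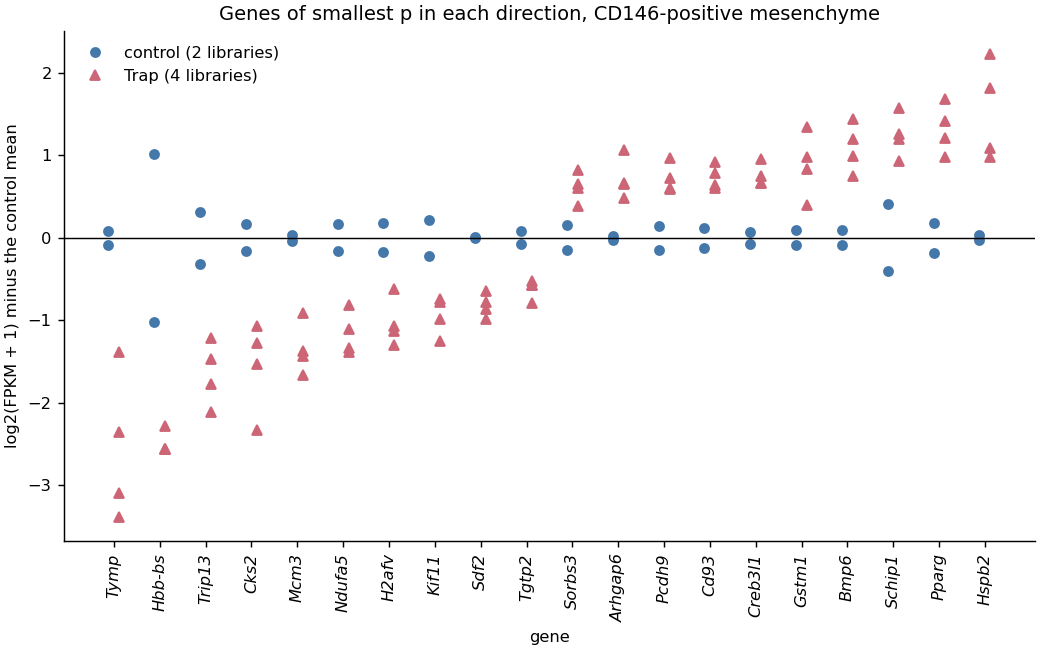
Log2(FPKM + 1) minus the mean of the 2 controls, by library, for the 10 lower and 10 higher genes of smallest p whose 4 Trap libraries (triangles) all lie on one side of both controls (circles). The separation is part of how the genes were chosen, and none passed at an adjusted p under 0.05.

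Vegfa, the ligand that Trap binds, stood at 20.42 and 22.46 FPKM in the controls and at 19.49, 21.62, 23.53 and 21.98 FPKM with Trap, a change of 0.01 ± 0.15 (95% interval -0.32 to 0.34). Among the other ligands that Trap or its receptor parts can bind, Vegfb stood at 5.72 and 5.01 FPKM against 4.74, 3.58, 6.01 and 4.15 FPKM, and Pgf, placental growth factor, at 6.42 and 11.29 FPKM against 8.34, 6.48, 7.19 and 12.13 FPKM. The groups overlapped in all 3. Vegfc and Figf, the lymphatic ligands VEGF-C and VEGF-D, had changes of 0.73 ± 0.51 and 0.98 ± 0.70, with control 2 lowest in both, at 0.39 and 0.29 FPKM. Of the receptors, Kdr stayed at or under 0.57 FPKM and Flt4 at or under 0.69 FPKM, so neither was tested, and Flt1 stood at 4.46 and 4.29 FPKM against 5.09, 5.75, 5.0 and 4.03 FPKM. The co-receptors Nrp1 and Nrp2 had changes of 0.07 ± 0.15 and 0.30 ± 0.29. Of the 8 tested genes of this family none passed, 6 had a change above 0 and the median was 0.11. The summed FPKM of the 10 genes was 81.73 and 82.33 in the controls and 85.87, 85.55, 88.57 and 106.26 with Trap, without overlap, although no single tested member had separate groups. Trap 4 was the highest library. Of the 25 lists, 2 had sums with all Trap libraries above both controls, the VEGF and pan-epithelial lists. In 3 all lay below, the cell cycle, interferon and stress response lists, and in 20 the sums overlapped. Among single genes, 6.53% lay wholly above both controls and 7.78% wholly below. No such share was computed for sums of other lists, so these counts only describe the lists.

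Mural identity genes were scattered around 0. Of 20 pericyte markers, 8 had a change above 0 and 12 below, with a median of -0.05, and in none did the Trap libraries lie wholly on one side of the controls. Rgs5 had a change of 0.00 ± 0.25, Cspg4, the proteoglycan NG2, one of 0.00 ± 0.17 and Pdgfrb one of 0.17 ± 0.17. Kcnj8, the pore subunit of the pericyte potassium channel gated by ATP, stood at 60.60 and 99.95 FPKM in the controls and at 50.72, 36.85, 55.25 and 63.65 FPKM with Trap, and it was the single member at an unadjusted p under 0.05 (change -0.61 ± 0.25, limma adjusted p = 0.842). Its change was -0.97 without control 1 and -0.25 without control 2. Of all genes, 3.52% lay lower at an unadjusted p under 0.05. Higd1b stood at 9.55 and 26.39 FPKM against 9.03, 4.42, 10.50 and 9.82 FPKM, with control 2 far above the other 5 libraries. The list's median turned from -0.23 without control 1 to 0.15 without control 2, so its sign rested on which control was kept. Of 20 smooth muscle contractile genes, 13 lay above 0 and 7 below, with a median of 0.08. Myh11, smooth muscle myosin, had a change of 0.10 ± 0.14 and Acta2, smooth muscle actin, one of 0.20 ± 0.35. Myl9, the regulatory light chain of that myosin, stood at 180.06 and 200.30 FPKM against 257.99, 227.33, 221.40 and 216.93 FPKM, the single member with all Trap libraries above both controls. Over all genes, 6.53% had that separation. Myocd, the coactivator of contractile genes, had a change of 0.43 ± 0.19.

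**Figure D5:**
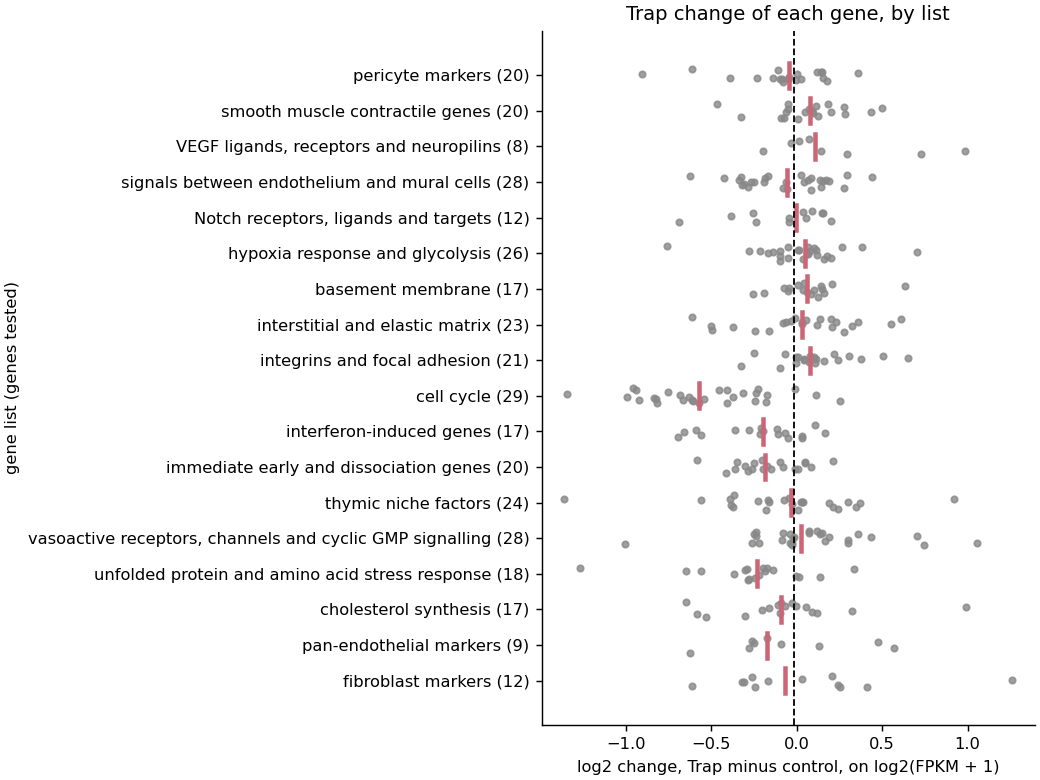
Log2 change (Trap minus control) of each tested gene, by list, with the list's median as a bar and the median of all genes, -0.02, as the dashed line. The cell cycle list has its median at -0.57, and the medians of the other lists shown lie between -0.23 and 0.11.

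Signals between endothelium and mural cells were scattered around 0. Of 28 tested members 13 lay above 0 and 15 below, with a median of -0.06. The receptor Tek, which binds the angiopoietins, stood at 2.82 and 2.12 FPKM in the controls and at 1.48, 1.42, 1.17 and 0.94 FPKM with Trap, and Id1, a target of BMP signalling, at 28.43 and 31.26 FPKM against 23.41, 24.49, 22.49 and 24.48 FPKM. With Ephb4, an ephrin receptor, these were the 3 of 28 members whose Trap libraries all lay below both controls, a share near the 7.78% of all genes. Tek is also an endothelial marker, and what part endothelial transcripts had in its values was not tested. Angpt1, the angiopoietin made by mural cells, had a change of 0.06 ± 0.21, Pdgfa one of 0.27 ± 0.18 and Ednra, the endothelin receptor, one of 0.04 ± 0.18. Of 12 tested Notch genes, 6 lay above 0 and 6 below. Notch3, the mural Notch receptor, stood at 72.40 and 109.57 FPKM against 101.72, 79.83, 101.42 and 116.96 FPKM, and its targets Heyl and Hey1 had changes of 0.15 ± 0.20 and -0.39 ± 0.32.

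Hypoxia and glycolysis genes lay on both sides of 0. Of 26, 16 lay above 0 and 10 below, with a median of 0.05, and none passed. Hif1a, the oxygen-regulated transcription factor, had a change of 0.06 ± 0.16, Epas1, a related factor, one of 0.11 ± 0.20, the glucose transporter Slc2a1 one of 0.10 ± 0.23 and Ldha, lactate dehydrogenase, one of 0.08 ± 0.17. Tpi1, the glycolytic triosephosphate isomerase, stood at 17.47 and 17.15 FPKM in the controls and at 11.24, 8.78, 10.28 and 9.15 FPKM with Trap, a change of -0.76 ± 0.17 (limma adjusted p = 0.787). It was the single member of 26 with wholly separate groups, while 7.78% of all genes had all Trap libraries below both controls. Adm, adrenomedullin, stood at 0.40 and 1.77 FPKM against 4.17, 2.88, 2.19 and 0.64 FPKM, with Trap 4 below control 2.

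Of 17 tested basement membrane genes, 12 lay above 0 and 5 below, with a median of 0.06. Col18a1, whose collagen carries endostatin at its end, stood at 10.38 and 7.40 FPKM in the controls and at 12.72, 15.70, 13.68 and 14.78 FPKM with Trap, a change of 0.63 ± 0.19 (limma adjusted p = 0.832). Nid1, nidogen, which links laminin to collagen IV, stood at 208.14 and 223.82 FPKM against 255.21, 227.30, 230.91 and 251.94 FPKM. These 2 of 17 had all Trap libraries above both controls, against 6.53% of all genes. Col4a1, the main collagen IV chain, had a change of 0.08 ± 0.13 and Lamc1, the laminin gamma chain, one of 0.04 ± 0.12. In the 23 interstitial and elastic genes, where control 1 and Trap 2 stood apart, 13 lay above 0 and 10 below. Col6a2, a collagen VI chain, stood at 95.60 and 114.06 FPKM against 155.52, 125.72, 140.99 and 202.04 FPKM, a change of 0.55 ± 0.19. Its partner Col6a1 stood at 135.69 and 171.37 FPKM against 175.68, 149.05, 192.81 and 232.12 FPKM and overlapped. Of 21 tested integrin and adhesion genes 15 lay above 0. Itga2, a collagen-binding integrin, stood at 3.86 and 4.04 FPKM against 5.94, 5.89, 6.37 and 5.88 FPKM, and Pxn, paxillin, at 2.31 and 4.37 FPKM against 6.09, 6.45, 4.79 and 5.30 FPKM.

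Interferon-induced genes lay mostly below 0. Of 17, 13 had a change below 0 and 4 above, with a median of -0.20, 3 lay lower at an unadjusted p under 0.05 (3.52% of all genes) and none passed. Over all genes tested, 52.4% had a change below 0. This list too was chosen with earlier results of these data known, so its counts only describe it. Their summed FPKM was 348.42 and 343.81 in the controls and 296.58, 264.70, 274.43 and 314.36 with Trap, without overlap. Ifit3, an antiviral protein of the tetratricopeptide family, stood at 53.80 and 42.47 FPKM against 29.67, 33.59, 26.97 and 29.54 FPKM, a change of -0.66 ± 0.15. Reads of its near copy Ifit3b may be shared with it. Ifit1 stood at 42.77 and 35.11 FPKM against 31.91, 20.60, 21.59 and 29.25 FPKM, and Ddx58, the RNA sensor RIG-I, at 26.28 and 28.66 FPKM against 22.34, 19.05, 20.28 and 23.07 FPKM. Mx1, a dynamin-like GTPase, stood at 3.74 and 4.64 FPKM against 1.54, 3.44, 1.56 and 2.63 FPKM. These 4 of 17 were the members with wholly separate groups, against 7.78% of all genes with all Trap libraries below both controls. With 1 library left out the list's median ranged from -0.33 without control 1 to -0.14 without Trap 4. In endothelium the list's median change was -0.37 and in CD140a-positive mesenchyme -0.12. The Ifit3 promoter, on the plus strand at chr19:34583279-34583578, is shown with the interferon element in capitals on either strand, searched as GAAA, any 2 bases and GAAA. Within the window searched, these letters occurred in 7 of the 13 interferon genes with a promoter (53.8%) and in 3.99% of all genes.
Ifit3: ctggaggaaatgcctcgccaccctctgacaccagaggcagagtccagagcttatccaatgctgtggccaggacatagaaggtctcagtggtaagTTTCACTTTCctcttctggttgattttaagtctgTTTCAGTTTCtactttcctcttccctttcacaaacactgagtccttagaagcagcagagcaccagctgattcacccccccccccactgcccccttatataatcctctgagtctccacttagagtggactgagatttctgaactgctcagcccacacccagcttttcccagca
The list was chosen for its known response to interferon, so that share describes the choice of genes.

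Chaperones and amino acid stress genes also lay mostly below 0. Of 18, 15 had a change below 0 and 3 above, against 52.4% of all genes below 0, with a median of -0.23, and the summed FPKM was 990.60 and 928.64 in the controls against 842.46, 826.52, 838.84 and 815.61 with Trap. In 6 members, Trib3, Pdia4, Atf4, Pdia6, Calr and Hspa5, all Trap libraries lay below both controls, in Atf4 narrowly (81.91 FPKM in Trap 1 and 82.00 FPKM in control 2). Of all genes, 7.78% lay below both controls in this way. The choice of this list was also made with earlier results of these data known, so its counts only describe it. Hspa5, the chaperone BiP, stood at 306.05 and 295.89 FPKM against 269.11, 250.97, 270.94 and 275.88 FPKM, a change of -0.17 ± 0.12. That difference is small beside its error, although the groups did not overlap. Trib3, a pseudokinase of the amino acid response, stood at 6.18 and 1.16 FPKM against 0.79, 0.66, 0.42 and 0.70 FPKM. Atf6, the stress sensor of the same organelle, went the other way, at 18.43 and 18.03 FPKM against 22.34, 23.97, 23.44 and 23.10 FPKM, a change of 0.33 ± 0.14. No member passed. The Hspa5 promoter, on the plus strand at chr2:34771840-34772139, is shown because it holds the endoplasmic reticulum stress element, in capitals. Searched on both strands as CCAAT, any 9 bases and CCACG, the element occurred in 5 of 16 list promoters (31.2%) and in 0.137% of all genes.
Hspa5: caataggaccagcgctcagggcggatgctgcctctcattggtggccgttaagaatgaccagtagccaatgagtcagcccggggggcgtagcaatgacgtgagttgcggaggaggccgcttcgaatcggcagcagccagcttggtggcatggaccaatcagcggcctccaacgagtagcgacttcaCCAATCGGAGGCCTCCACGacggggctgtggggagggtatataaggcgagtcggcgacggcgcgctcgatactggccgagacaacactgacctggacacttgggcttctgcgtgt
Of 17 tested cholesterol synthesis genes, 12 lay below 0 and 5 above, with a median of -0.09. Cyp51 stood at 19.95 and 17.16 FPKM against 9.42, 16.95, 11.29 and 9.46 FPKM, a change of -0.65 ± 0.24, and Nsdhl had a change of -0.58 ± 0.25. Mvd went the other way, with the largest change of the list, 0.99 ± 0.46, and no member passed.

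Immediate early and dissociation genes, which rise when tissue is handled, had 15 of 20 members below 0 and a median of -0.19. Their sum was highest in control 2, at 2987 FPKM, against 1897 FPKM in control 1 and 1852 to 2422 FPKM with Trap. Without control 2 the median was 0.04 and 12 of the 20 lay above 0. Ier2 stood at 27.37 and 24.32 FPKM against 19.47, 15.05, 20.00 and 13.77 FPKM, the single member with separate groups. Of all genes, 7.78% had all Trap libraries below both controls. Hspa1a, a heat shock gene with a near-identical copy, ranged from 130.93 to 630.15 FPKM over the 6 libraries without regard to group.

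Factors that the thymic stroma supplies to thymocytes and epithelium were scattered. Of 24 tested, 11 lay above 0 and 13 below, with a median of -0.04. Wnt5b, a WNT ligand, stood at 3.36 and 3.18 FPKM in the controls and at 0.29, 1.51, 0.97 and 0.20 FPKM with Trap, a change of -1.36 ± 0.38 (limma adjusted p = 0.815). Fgf7, a growth factor for epithelium, stood at 2.26 and 1.49 FPKM against 0.76, 1.27, 0.46 and 1.37 FPKM, and Aldh1a2, which makes retinoic acid, had a change of -0.37 ± 0.29. All Trap libraries lay below both controls in these 3 of 24 genes, a share not far from the 7.78% of all genes. Kitl, stem cell factor, stood at 24.86 and 24.62 FPKM against 31.77, 27.02, 30.30 and 26.33 FPKM and was the single member with all Trap libraries above, as were 6.53% of all genes. The chemokine Cxcl12 had a change of -0.18 ± 0.19, and the adhesion molecules Vcam1 and Icam1, which progenitors bind, had changes of 0.01 ± 0.15 and -0.07 ± 0.44. Among 28 vasoactive receptor and channel genes, 14 lay above 0 and 14 below. Ramp1, a subunit of the receptor for calcitonin gene-related peptide, stood at 4.00 and 5.51 FPKM against 1.52, 2.01, 1.33 and 2.68 FPKM, a change of -1.01 ± 0.30 (limma adjusted p = 0.832). Ptger3, a prostaglandin E receptor, stood at 0.03 and 0.36 FPKM against 1.84, 2.02, 1.01 and 1.13 FPKM, a change of 1.06 ± 0.34 at a low level. Calcrl, which pairs with Ramp1, had a change of 0.30 ± 0.20.

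Genes whose mural change differed most from that of the other populations did not pass. Against CD140a-positive cells, the mural change was higher in Camk2g, a calcium-dependent kinase, at 0.36 against -0.67, and in Dkk2, a WNT antagonist, at 0.91 against -0.43, though Dkk2 averaged only 0.32 and 1.47 FPKM in mural cells. It was lower in Kti12, at -0.86 against 0.91, a difference of -1.77 ± 0.32 (limma adjusted p = 0.515). Ube2v1, a ubiquitin-conjugating enzyme variant, and Phlda3, a target of p53, had differences of -2.38 ± 0.45 and -1.90 ± 0.42. Against endothelium it was higher in Gins1, a partner of the replicative helicase, at 0.43 against -2.51, a difference of 2.94 ± 0.52 (limma adjusted p = 0.485). Gins1 averaged 1.92 FPKM in controls and 2.60 FPKM with Trap in mural cells, and 5.07 and 0.058 FPKM in endothelium. Ndufa5 differed the other way, at -1.16 in mural cells and 1.27 in endothelium, a difference of -2.44 ± 0.43 (limma adjusted p = 0.485). Sdf2 had a change of -0.82 in mural cells and 0.14 in endothelium, a difference of -0.96 ± 0.21 (limma adjusted p = 0.728). Pparg, which was outside the genes ranked for this comparison, had a change of 0.03 in CD140a-positive cells and 0.04 in endothelium.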

How the data were processed

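Per the labels' protocols, RNA was amplified as cDNA with the Ovation RNA-Seq System V2, built into libraries with the KAPA LTP kit and sequenced from both ends (HiSeq3000). The submitters' processing notes name bcl2fastq 2.17, STAR, DESeq2 and the builds GRCm38 and mm10, without roles. Which annotation and counter were used is not given in the sources used here. Deposited by the authors was 1 table of FPKM values with 2 decimals for 18847 protein-coding genes, of which 27 symbols had become dates and were restored by Ensembl identifier. The number of reads behind a value is unknown: low values did not fall on whole-read steps, with best scores of 0.142 to 0.207 where 1 would mean that all did. Deposited FPKM summed to 184608 to 190447 per mural library, and 11264 to 11694 genes reached 1 FPKM. Across genes, log2 values of these libraries correlated (Pearson) at 0.896 to 0.957. Amplification before library building can lose rare transcripts, so an exact 0 means only that a gene is listed at 0.

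Groups came from the labels. Tests used limma 3.58.1 in R 4.3.3 on log2(FPKM + 1), with moderated variances (eBayes, trend), two-sided, with Benjamini-Hochberg adjustment over all genes tested at 0.05. Scripts were tested on simulated data. With 4 libraries against 2, no exact permutation test could pass 0.05, and none was run. Unless marked SD, an error is the SE of the limma fit. Named genes were the 10 of smallest p in each direction whose Trap libraries all lay on 1 side of both controls, with a higher group mean of at least 5 FPKM. Each list added at most 4 members, those with its smallest p-values, and the VEGF family, the sorting markers and 5 genes in each direction for differences between populations were added. Identifier-only symbols, Y-linked genes and Xist were not ranked. Further list members, among them Pcna, Bub1, Tyms, Mki67, Top2a, Cdkn1a, Cdkn1b, Mcm6, Ccnd1, Eln, Fbln5, Lox, Mfap4, Hspa5 and Hspa1a, were named after their values were seen. The members and the 25 lists were chosen with earlier results of these data known. Alternatives covered the pseudocount, filter, scaling, variance model, pooled fits, a replicate block and leaving out libraries.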

Additional observations from a re-analysis of the deposited data

Results flagged for a closer look

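Among the 4 Trap libraries, 182 values (genes named, and the summed FPKM of each list) were searched for a library whose gap to its nearest neighbour took up most of the group's range on the log2 scale, by Dixon's 95% criterion. A total of 9 were found, and chance gives about 1 in 20. Trap 2 was the distant library for 5 genes. Angpt1 stood at 8.86 FPKM there against 12.08 to 12.16 FPKM in the other Trap libraries (ratio 0.979), Des, the filament protein desmin, at 25.52 against 53.48 to 56.93 FPKM (0.921), and Col4a1 at 282.63 against 313.38 to 319.95 FPKM (0.833). Cd74, the invariant chain of antigen-presenting cells, stood at 5.03 FPKM there against 1.41 to 1.81 FPKM (0.833). Hbb-bs stood at 0.21 FPKM there and at 0.00 FPKM in the others (1.0). Trap 4 was distant for Pdia6, at 18.64 against 15.14 to 15.34 FPKM (0.937), for Trpm5, at 1.29 against 0.67 to 0.76 FPKM (0.834), and for the VEGF family's summed FPKM, at 106.26 against 85.55 to 88.57 (0.84). Trap 3 was distant for Itga2, at 6.37 against 5.88 to 5.94 FPKM (0.874).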

How the results depend on the processing

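With 2 controls, 1 library can set a direction, and the number of reads behind each value is unknown. The count of genes passing in mural cells stayed at 0 except with no trend in the variance (1), with all 30 libraries (2) and with all 30 libraries and 1 weight per population (3). It was 0 to 0 with each mural library left out. Mcm3 passed in both fits on 30 libraries (adjusted p 0.0211 and 0.0132) and in no other, where its limma adjusted p ranged from 0.424 to 1. For the difference from CD140a-positive cells the count ranged from 0 to 1 with 1 library left out (1 without CD140a control 2) and was otherwise 0. For the difference from endothelium it was 3 with no filter on low values, 1 with all 30 libraries and otherwise 0, and 0 to 0 with 1 library left out. Replicate numbers did not pair the samples: deviations of same-numbered libraries correlated at 0.003 and -0.306. With the replicate block 0 genes passed and 357 lay at an unadjusted p under 0.05, and Trap 3 and 4, which share no number with a control, added nothing to it. The cell cycle count below 0 ranged from 17 (of 19 left by a filter of 5 FPKM) to 27, and its median from -0.80 to -0.31. None of the 20 ranked genes changed sign under any alternative, but 42 of the 157 genes recomputed did at least once. Among those whose change was at least its SE, the reversals were Des and Pdgfrb without control 1, Figf and Hey1 without control 2, and Egln1 (-0.0012) and Ngfr (-0.080) with control 1 and Trap 2 both left out. With 1 library left out, Des ranged from -0.12 to 0.84, Pdgfrb from -0.043 to 0.39, Figf from -0.38 to 2.35 and Hey1 from -1.005 to 0.23. The cause was not tested.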

Other observations

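The gene of smallest p in mural cells has only a clone name, RP23-149C6.7, and stood at 4.20 and 5.11 FPKM in the controls and at 0.00, 0.15, 0.15 and 0.00 FPKM with Trap, a change of -2.39 ± 0.30 (SE, limma adjusted p = 0.303). It passed in the fits on all 30 libraries (limma adjusted p = 2.08e-04 and 1.15e-04) and with no trend in the variance (limma adjusted p = 0.0363). The spread in the fits on 30 libraries could be too small for genes near 0 in the other populations. Olfr560, an olfactory receptor gene, stood at 0.95 and 0.86 FPKM in the controls and at 2.31, 4.55, 4.52 and 2.53 FPKM with Trap, and passed in 1 of the fits on 30 libraries (limma adjusted p = 0.0475).

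E2f8 and Mybl2, regulators of the cell cycle that are in no list, were picked after their values had been seen, so that their separation is part of the choice. E2f8, an atypical E2F repressor, stood at 9.13 and 7.39 FPKM in the controls and at 2.81, 3.80, 3.72 and 1.80 FPKM with Trap, a change of -1.23 ± 0.29. Mybl2, a transcription factor that activates mitotic genes, stood at 5.41 and 4.72 FPKM against 2.02, 2.28, 1.56 and 1.33 FPKM, a change of -1.13 ± 0.28. Neither passed (limma adjusted p = 0.787).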
